A study of Homo sapiens with 4 samples.

Results

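The integrins and the proteins that tie them to the actin cytoskeleton were described in BT-474 breast cancer cells with and without added Neuropilin-1 (NRP-1). The members were 41 genes named by symbol and found in the files by NCBI Gene ID: 22 integrin subunits (14 alpha and 8 beta) and 19 components of focal adhesions. The files list 18882 genes in all. Of the 41 members, 39 had a row in at least 1 library, and 32 passed a filter on low read counts and could be tested. ITGA4 and ITGA8 had no row in the tables used here and were not analysed. ITGA1, ITGA2B, ITGA5, ITGA7, ITGA9, ITGB3 and FERMT1 had too few reads for the test, so their reads are given as such.

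BT-474 is an established human breast cancer line of luminal B-like origin. Polyadenylated RNA was sequenced in 2 control libraries (replicates 1 and 2, wild-type) and 2 NRP-1 libraries (replicates 2 and 3, BT-474 NRP-1 cells), to find genes that differ when NRP-1 is overexpressed. Both kinds of cells were kept in serum-supplemented RPMI medium. BT-474 NRP-1 cells carried an NRP-1 cDNA in the pPTuner IRES2 plasmid and had been selected with Geneticin. The labels call the control cells wild-type, and how many clones the sequenced NRP-1 cells represent is not given in the sources used here. In these libraries the addition of NRP-1, the plasmid, the selection and the choice of clones cannot be told apart.

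Integrins are heterodimers of an alpha and a beta subunit that span the cell membrane and hold the cell to matrix proteins such as collagen, laminin and fibronectin. Talins and kindlins bind the short tail of the beta subunit inside the cell and switch the receptor on, vinculin and tensins join it to actin, and a complex of ILK, PINCH and parvin (the IPP complex) and the kinases FAK and SRC gather at the same site. In breast epithelium, alpha-6/beta-4 integrin anchors cells to the basement membrane in hemidesmosomes.

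The expected counts, which are estimated reads per gene and need not be whole, summed to between 8243595 and 8448926 per library. As a check of the labels, NRP1 reads numbered 7 and 8 in control and 103 and 62 in NRP-1. The control libraries were closer to each other than the NRP-1 libraries. Over the tested members the median absolute log2 ratio between the libraries of a group was 0.11 for control and 0.24 for NRP-1, and 23 of 32 members had the wider ratio in NRP-1. Over all 14298 tested genes it was 0.14 and 0.29. All 8 luminal markers had more than 3 reads in every library, while KRT5, a basal keratin, had 0, 0, 0 and 1 reads and KRT14 had no row. Of 6 fibroblast markers only COL1A1 exceeded 3 reads in every library, and PDGFRB and DCN had no row. COL1A1 was abundant, with 1739 and 1740 reads in control and 1513 and 1357 in NRP-1, lower in both (adjusted p = 0.177 by edgeR). COL1A2 had 1, 0, 0 and 1 reads, COL3A1 0, 0, 0 and 6, and LUM 1, 0, 0 and 0. Leukocyte markers (4 of 6 above 3 reads in every library, CD3E with no row) summed to 47.7 to 52.2 CPM (reads scaled to a common library size) in control and 23.4 to 23.5 CPM in NRP-1. CD68, a lysosomal protein, carried this difference, with 39.4 and 34.2 CPM in control and 12.6 and 10.5 in NRP-1 (adjusted p = 0.042 by edgeR), while PTPRC, LCP1 and ITGAL overlapped between the groups. Endothelial markers (2 of 5, TEK with no row) summed to 6.16 to 9.13 CPM in control and 12.3 to 14.2 CPM in NRP-1. The difference came mostly through VWF (1.11 and 2.43 CPM, then 5.53 and 5.75 CPM, adjusted p = 0.0998 by edgeR), while PECAM1 overlapped. CDH5 (1 and 1 reads in control, 15 and 3 in NRP-1) and KDR (4 and 1, then 7 and 6) were also higher, from few reads. Basal markers (2 of 5) summed to 10.2 to 13.1 CPM in control and 10.2 to 12.9 CPM in NRP-1. The 2 were TP63 (12 and 43 reads in control, 40 and 74 in NRP-1) and MYLK (69 and 65, then 47 and 32). TP63 overlapped between the groups, and MYLK was lower in both NRP-1 libraries. In such bulk samples fewer cells of a type and less RNA per cell cannot be told apart, and the part of these markers in the results below was not tested.

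The first question was which integrins these cells transcribe. Levels were read as FPKM, the authors' values scaled by transcript length and by mapped fragments, so that genes of different length can be compared. A subunit was called expressed at an FPKM of at least 1 in every library of a group. In control cells 9 of 22 subunits met this: ITGA2, ITGA3, ITGA6 and ITGAV among the alpha subunits, and ITGB1, ITGB4, ITGB5, ITGB6 and ITGB7 among the beta subunits. In NRP-1 cells 8 did, with ITGAE added and ITGB6 and ITGB7 dropped at 0.99 and 0.97 FPKM in replicate 3, just under the limit. ITGB6 in control replicate 2, at 1 FPKM, lay just on it.

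**Figure D1:**
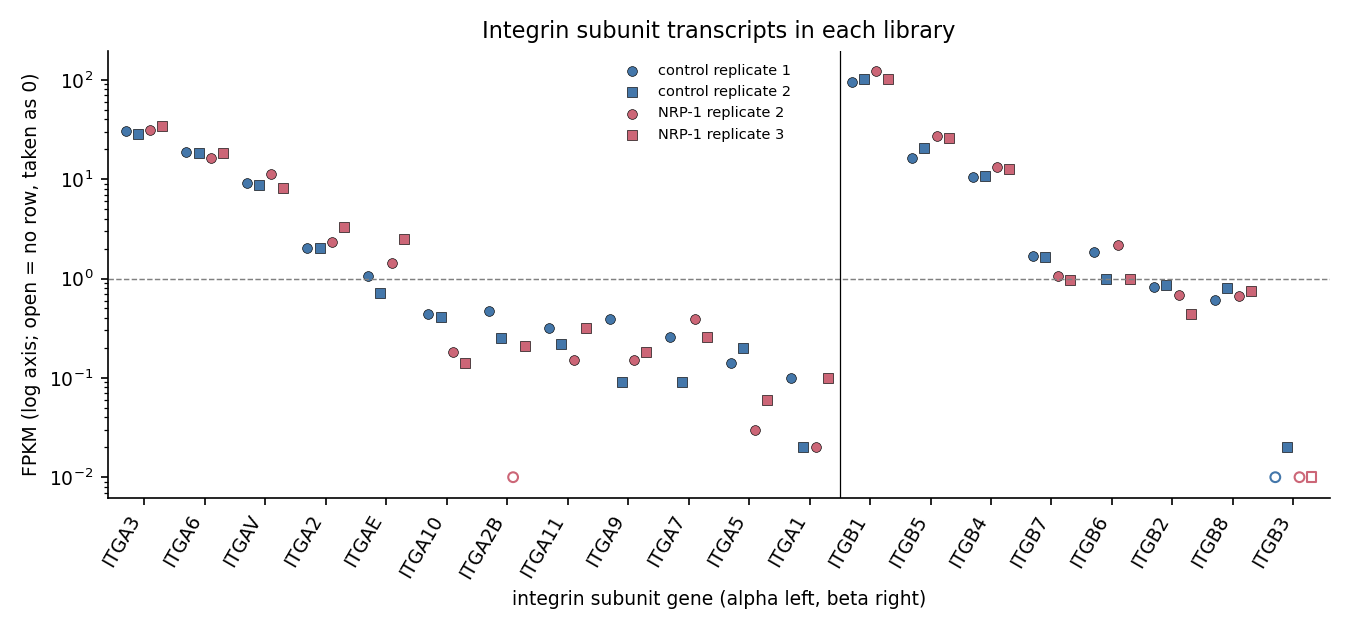
FPKM of the 20 integrin subunit genes with a row (log axis; alpha subunits left, beta subunits right of the line) in each of the 4 libraries, with control in blue and NRP-1 in red; circles and squares tell the libraries of a group apart, the dashed line is 1 FPKM and open symbols are genes with no row in that library, taken as 0. ITGB1 stood above every other subunit at 95.33 to 122.52 FPKM, and ITGB3 was at 0.02 FPKM in 1 library and without a row in the others.

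ITGB1, the beta subunit shared by the collagen, laminin and fibronectin receptors, was the most abundant subunit, at 95.33 and 102.22 FPKM in control and 122.52 and 101.82 FPKM in NRP-1. It made up 70.9% to 75.1% of the summed FPKM of the 8 beta genes, and the groups overlapped. ITGB5, the vitronectin-binding partner of ITGAV, was next at 16.28 and 20.74 FPKM in control and 26.91 and 25.86 FPKM in NRP-1. Both NRP-1 libraries lay above both control libraries. ITGB4, the hemidesmosome subunit, read 10.43 and 10.82 FPKM in control and 13.39 and 12.74 FPKM in NRP-1, again without overlap. ITGB1, ITGB5 and ITGB4 held nearly all of the beta transcripts, and ITGB5 and ITGB4 kept that order in every library.

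The remaining beta subunits were scarce. ITGB7, known from gut lymphocytes, had 39, 38, 25 and 23 reads in control replicates 1 and 2 and NRP-1 replicates 2 and 3, or 1.68, 1.63, 1.06 and 0.97 FPKM. ITGB6, an epithelial partner of ITGAV, had 37, 20, 44 and 20 reads, or 1.87, 1, 2.19 and 0.99 FPKM. ITGB7 was lower in both NRP-1 libraries, whereas ITGB6 varied as much within each group as between them. ITGB8 (0.71 ± 0.134 and 0.71 ± 0.064 FPKM, SD, n = 2) and the leukocyte subunit ITGB2 (0.84 ± 0.028 and 0.57 ± 0.177 FPKM in control and NRP-1, SD, n = 2) stayed under 1 FPKM in every library. ITGB3, the partner of ITGAV and ITGA2B, had 1 read in control replicate 2 and no row, taken as 0 reads, in the other control library and in both NRP-1 libraries. A count of 0 allows up to 3 reads, which is 0.352 to 0.370 CPM at these depths, so both groups lay at or under that limit and no fold is given.

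Among the alpha subunits, ITGA3, which makes the laminin receptor alpha-3/beta-1, led with 30.29 and 28.53 FPKM in control and 31.48 and 34.01 FPKM in NRP-1. ITGA6, the laminin-binding partner of ITGB1 and ITGB4, followed with 18.61 and 18.48 FPKM in control and 16.48 and 18.47 FPKM in NRP-1. In FPKM ITGA3 exceeded ITGA6 by 1.54 to 1.63 times in control and by 1.84 to 1.91 times in NRP-1. ITGAV, the partner of 5 different beta subunits, read 9.17 and 8.73 FPKM in control and 11.26 and 8.22 FPKM in NRP-1, with NRP-1 replicate 3 below and replicate 2 above the controls. ITGA2, the collagen-binding alpha-2 subunit, was at 2.01 and 2.04 FPKM in control and 2.33 and 3.27 FPKM in NRP-1, higher in both. ITGAE, the partner of ITGB7 in lymphocytes that bind E-cadherin, had 34 and 23 reads (1.06 and 0.71 FPKM) in control and 47 and 82 reads (1.43 and 2.49 FPKM) in NRP-1. The order of the alpha genes, ITGA3, ITGA6, ITGAV and ITGA2, was the same in all 4 libraries.

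The fibronectin-binding subunit ITGA5 was nearly silent, with 5 and 7 reads in control and 1 and 2 reads in NRP-1. Its ratio of summed reads, NRP-1 over control at equal depth, was 0.240 with a 95% interval of 0.0435 to 0.889 that covers counting error only (exact binomial). In the fit without a filter its adjusted p was 0.307 by edgeR. ITGA2B, the platelet subunit, had 13 and 7 reads in control and 0 and 6 in NRP-1 (ratio 0.288, interval 0.0946 to 0.743; adjusted p = 0.485 in the edgeR fit without a filter). The collagen-binding ITGA1 (5 reads summed over each group) and the subunits ITGA7 (11 and 20 reads) and ITGA9 (16 and 11 reads) had intervals that spanned 1. ITGA1 overlaps PELO in the RefSeq annotation, and PELO had 112 to 153 reads per library. The other collagen-binding subunits passed the filter with few reads: ITGA10 had 19 and 18 reads in control and 8 and 6 in NRP-1, and ITGA11 had 13, 9, 6 and 14 reads.

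Known heterodimers were then read by their scarcer transcript, since a pair needs both subunits. Of 24 known alpha-beta pairs, 20 had a row for both genes, and 4 involve an alpha subunit with no row (ITGA4, ITGA8 or ITGAD). In control cells 7 pairs had both subunits at 1 FPKM or more in each library: ITGB1 with ITGA2, ITGA3, ITGA6 or ITGAV, ITGAV with ITGB5 or ITGB6, and ITGA6 with ITGB4. In NRP-1 cells 6 of these pairs did, and ITGAV-ITGB6 dropped out at 0.99 FPKM of ITGB6 in replicate 3. The highest was ITGA3-ITGB1, set by ITGA3, and the scarcer gene was the alpha subunit in each ITGB1 pair. ITGA6-ITGB4 was set by ITGB4 in every library. The pair ITGAE-ITGB7 sat at the limit, with its scarcer transcript, ITGAE in the control libraries and ITGB7 in the NRP-1 libraries, at 1.06, 0.71, 1.06 and 0.97 FPKM. A limit of 0.5 FPKM gave 11 pairs in control and 9 in NRP-1, and a limit of 2 FPKM gave 6 in each group.

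The levels of partner subunits were also set against each other. The 12 alpha partners of ITGB1 (ITGA4 and ITGA8 taken as 0) summed to 61.73, 58.81, 62.47 and 65.03 FPKM, which is 0.648, 0.575, 0.510 and 0.639 times the FPKM of ITGB1 itself. The FPKM of ITGB4 was 0.560 and 0.585 times that of ITGA6 in control and 0.813 and 0.690 times in NRP-1. ITGB5 exceeded ITGAV by 1.78 and 2.38 times in control and by 2.39 and 3.15 times in NRP-1. These are ratios of transcripts, and the protein was not measured here. CD151, the tetraspanin that binds laminin receptors such as alpha-3/beta-1, was as abundant as ITGB1, at 93.32 and 103.83 FPKM in control and 101.60 and 106.99 FPKM in NRP-1. Its groups overlapped, with a log2 fold change of 0.05 (95% interval -0.25 to 0.34).

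The second question was whether the members differed between NRP-1 and control cells. The reads were scaled to CPM and compared by edgeR's quasi-likelihood test across all 14298 genes, with Benjamini-Hochberg adjustment over all of them. With the adjusted p held under 0.05, none of the 32 tested members was called (0 by edgeR), beside 1.09% of all genes. The lowest adjusted p of a member was 0.074, for VCL. At an unadjusted p under 0.05, edgeR gave 7 members as higher (21.9% of those tested, beside 10.8% of all genes) and 2 as lower (6.25%, beside 12.1%). DESeq2, the second count test, called 3 members at an adjusted p under 0.05, of which TLN2 and VCL were higher (beside 2.78% of all genes) and TNS4 was lower (beside 3.89%). For any single gene, an exact permutation test (two-sided) of 2 libraries against 2 can go no lower than p = 0.33. Nothing in the labels ties the libraries to separate cultures, so the p-values measure the spread between these libraries, which may be technical.

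The libraries of a group differed beyond counting noise, so none was counted as a duplicate. In 15 members both NRP-1 libraries lay above both controls (46.9% of those tested), and 27.9% of all tested genes did. In 8 members both lay below (25.0%), and 28.3% of all genes did. The median log2 fold change of the 32 members was 0.15, against 0.02 for all tested genes. By role the medians were 0.09 for the 7 tested alpha subunits, 0.11 for 7 beta subunits, 0.56 for 7 tail-binding and actin-linking proteins, 0.40 for the 4 IPP genes and -0.16 for 6 kinases and scaffolds. The lists were chosen with results of these data known, and these counts are descriptions.

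**Figure D2:**
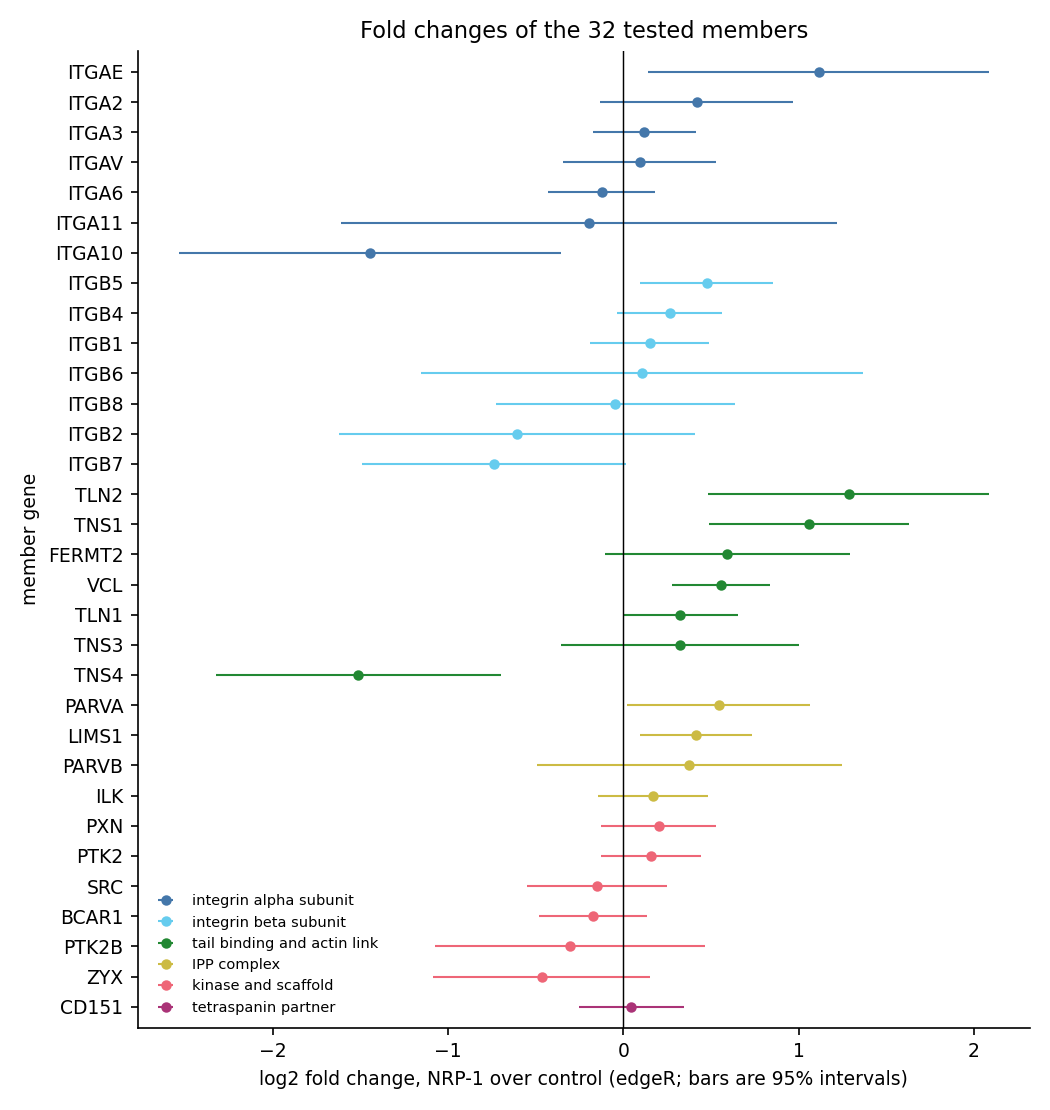
Log2 fold change of NRP-1 over control for the 32 tested members (points, edgeR) with 95% intervals (bars), grouped by role and sorted within each role. Among the tail-binding and actin-linking genes 6 of 7 lay right of 0 and TNS4 lay furthest left, at -1.51, while most integrin intervals spanned 0.

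Of the proteins that bind the integrin tail or join it to actin, vinculin (VCL), which reinforces the talin-actin bond under load, showed the least spread. It had 703 and 727 reads in control and 1086 and 1108 reads in NRP-1. The libraries of each group were close together, and the groups were well apart. The level was 87.5 ± 1.31 CPM in control and 129 ± 1.70 CPM in NRP-1 (SD, n = 2), a log2 fold change of 0.56 (95% interval 0.28 to 0.84). The adjusted p was 0.074 by edgeR and 0.046 by DESeq2. AP3M1, which overlaps VCL in the RefSeq annotation, had 707 and 766 reads in control and 908 and 788 in NRP-1.

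Talin 2 (TLN2), the less abundant of the 2 talins that activate integrins, had 92 and 113 reads in control and 182 and 339 in NRP-1. Both NRP-1 libraries exceeded the controls, and replicate 3 lay further from replicate 2 than replicate 2 lay from the controls. The log2 fold change was 1.29 (95% interval 0.48 to 2.09; adjusted p = 0.098 by edgeR and 0.012 by DESeq2). Talin 1 (TLN1), the main form, had 651 and 746 reads in control and 860 and 964 in NRP-1, with a log2 fold change of 0.33 (interval -0.004 to 0.66). Per length, TLN2 made up 9.23% and 9.85% of the talin FPKM in control and 13.3% and 20.3% in NRP-1.

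The promoter sequences of VCL and TLN2 are shown because these were the 2 members that DESeq2 called as higher. TNS4 had no entry in the table used. Each is the 250 bases upstream of the RefSeq transcript start (GRCh38.p14, plus strand, 5′ to 3′), VCL at chr10:73997866-73998115 and TLN2 at chr15:62390300-62390549. Capitals mark the GC box (GGGCGG) and the core of the TEAD motif (GGAATG), searched on both strands.
VCL: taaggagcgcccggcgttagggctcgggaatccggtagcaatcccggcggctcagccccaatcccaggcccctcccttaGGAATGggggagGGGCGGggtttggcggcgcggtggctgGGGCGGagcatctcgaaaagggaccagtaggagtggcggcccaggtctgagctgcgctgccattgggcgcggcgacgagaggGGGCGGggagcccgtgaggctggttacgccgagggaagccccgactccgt
TLN2: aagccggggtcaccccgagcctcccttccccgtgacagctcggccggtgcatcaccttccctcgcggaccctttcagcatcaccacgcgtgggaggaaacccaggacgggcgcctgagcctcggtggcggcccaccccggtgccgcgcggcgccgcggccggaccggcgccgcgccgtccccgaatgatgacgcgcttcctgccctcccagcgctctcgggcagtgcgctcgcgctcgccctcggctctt
The VCL window held 3 GC boxes and 1 TEAD core, and the TLN2 window held neither. Neither window held a CArG box, the motif of serum response factor. Among 35116 promoter windows of the same length, 42.6% held a GC box, 11.9% a TEAD core and 1.16% a CArG box. Both windows were rich in G and C, at 70.4% for VCL and 74.4% for TLN2, beside a median of 58.0% for all windows. The motifs were chosen after the values had been seen, and a match describes the letters only.

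The tensins, which bind integrin tails and actin, lay on both sides of the controls. TNS4 (cten), a short tensin without the actin-binding region, had 202 and 225 reads in control and 52 and 104 in NRP-1. Both NRP-1 libraries lay far below both controls. Its log2 fold change was -1.51 (95% interval -2.32 to -0.70; adjusted p = 0.079 by edgeR and 0.0027 by DESeq2). Omitting any 1 library left it at -2.09 to -1.11. TNS1 had 70 and 55 reads in control and 127 and 145 in NRP-1. Those libraries did not overlap either, at a log2 fold change of 1.06 (interval 0.49 to 1.63; adjusted p = 0.080 by edgeR and 0.055 by DESeq2). TNS3 had 519 and 538 reads in control and 891 and 489 in NRP-1, so its log2 fold change was 0.69 from NRP-1 replicate 2 alone and -0.18 from NRP-1 replicate 3 alone, against both controls. TNS2, no member, had 632 and 619 reads in control and 535 and 350 in NRP-1. Within the summed FPKM of the 4 tensins, TNS4 made up 19.4% and 21.3% in control and 5.03% and 14.5% in NRP-1, while TNS1 made up 2.67% and 2.07% and then 4.90% and 8.04%.

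**Figure D3:**
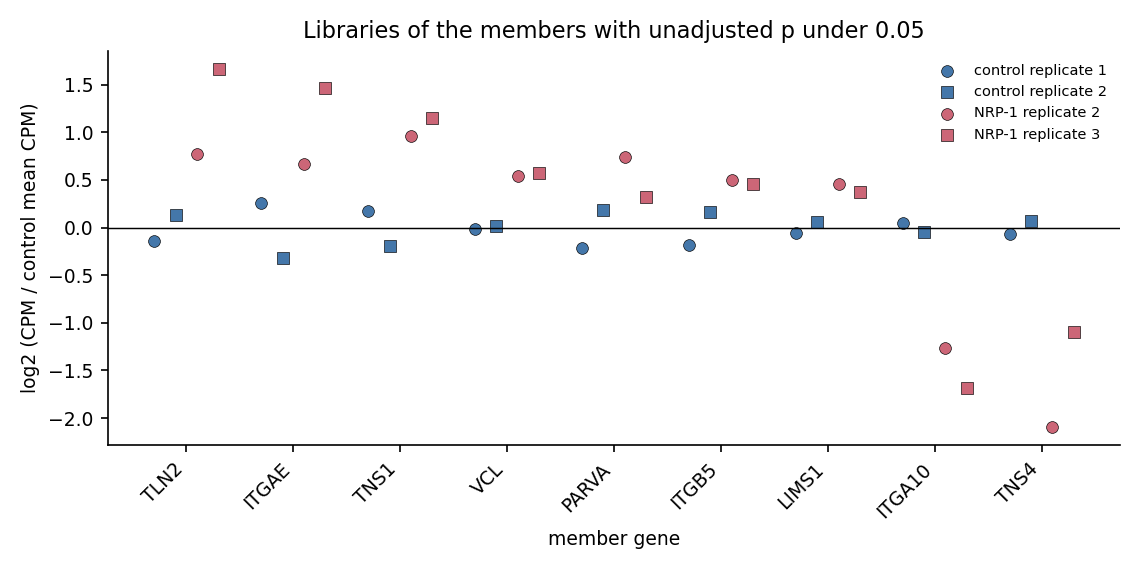
Level of each library relative to the control mean (log2 ratio of CPM) for the 9 members with an unadjusted edgeR p under 0.05, control in blue and NRP-1 in red. VCL, LIMS1 and ITGB5 had NRP-1 libraries close together, while TLN2, ITGAE and TNS4 had them far apart.

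Kindlin 2 (FERMT2), a co-activator of integrins with talin, had 74 and 92 reads in control and 159 and 102 in NRP-1, a log2 fold change of 0.59 (95% interval -0.10 to 1.29; adjusted p = 0.276 by edgeR). Kindlin 1 (FERMT1), the epithelial form, had only 3 and 2 reads in control and 4 and 8 in NRP-1. FERMT2 made up 68.4% and 76.9% of the kindlin FPKM in control and 85.3% and 67.7% in NRP-1, the rest being mostly FERMT3, the blood cell form, at 0.88 to 1.62 FPKM.

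All 4 members of the IPP complex had a positive log2 fold change, and none passed the adjusted test. LIMS1 (PINCH1), the adaptor that holds ILK, had 374 and 410 reads in control and 558 and 530 in NRP-1. The groups did not overlap, and the log2 fold change was 0.41 (95% interval 0.09 to 0.73; adjusted p = 0.144 by edgeR). LIMS4, a near-identical copy, had 48 to 59 reads per library, at most 11.8% of their sum, and adding its reads gave a log2 fold change of 0.39. PARVA (alpha-parvin), an actin-binding member, had 254 and 340 reads in control and 515 and 387 in NRP-1, at 0.54 (interval 0.02 to 1.07; adjusted p = 0.204 by edgeR). Both NRP-1 libraries were higher, replicate 3 by less than the controls differed. PARVB (beta-parvin) had 110, 133, 108 and 221 reads, with NRP-1 replicate 2 at the level of control replicate 1 and NRP-1 replicate 3 above both controls. ILK, the scaffold of the complex, had 582 and 621 reads in control and 664 and 744 in NRP-1, at 0.17 (interval -0.15 to 0.48). PARVA was thus the larger share of parvin FPKM in no library, from 25.4% to 47.3%, both ends being NRP-1 libraries.

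Among kinases and scaffolds, PTK2 (FAK), the kinase that integrins switch on, had 1095 and 1194 reads in control and 1326 and 1337 in NRP-1. Both NRP-1 libraries were higher, by a small step: 140 ± 7.35 against 156 ± 0.762 CPM (SD, n = 2), a log2 fold change of 0.16 (95% interval -0.12 to 0.44; adjusted p = 0.460 by edgeR). PTK2B (PYK2), its relative, had 100 and 134 reads in control and 124 and 73 in NRP-1, and the groups overlapped. PTK2 held 89.3% to 94.5% of the FPKM of both. SRC, the partner kinase of FAK, was at 26.7 ± 1.76 CPM in control and 24.1 ± 0.974 CPM in NRP-1 (SD, n = 2). The scaffold PXN (paxillin) was at 99.8 ± 4.06 and 115 ± 12.8 CPM, and BCAR1 (p130Cas), a docking protein phosphorylated by SRC, at 73.3 ± 2.81 and 64.9 ± 3.68 CPM (SD, n = 2). Their log2 fold changes were -0.15, 0.20 and -0.17, with intervals that spanned 0.

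Zyxin (ZYX), a LIM protein of mature adhesions and stress fibres, had 833 and 818 reads in control and 787 and 458 in NRP-1. Replicate 2 was close to the controls and replicate 3 was far lower, giving a log2 fold change of -0.47 (95% interval -1.09 to 0.15; adjusted p = 0.330 by edgeR). Omitting NRP-1 replicate 3 brought it to -0.13 and omitting NRP-1 replicate 2 to -0.92. FAM131B, which overlaps ZYX in the RefSeq annotation, had 140 and 103 reads in control and 38 and 6 in NRP-1. The strand setting of the counting is not given in the sources used here, and the part of overlapping genes in these counts was not tested.

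None of the integrin subunits passed the adjusted test by edgeR or DESeq2, and 3 had an unadjusted edgeR p under 0.05. ITGB5 was at 64.0 ± 10.7 CPM in control and 89.0 ± 2.2 CPM in NRP-1 (SD, n = 2), a log2 fold change of 0.48 (95% interval 0.10 to 0.85; adjusted p = 0.149 by edgeR). ITGAE had a log2 fold change of 1.11 (interval 0.14 to 2.09; adjusted p = 0.174). HASPIN, which lies within ITGAE in the RefSeq annotation, was also higher, with 49 and 59 reads in control and 77 and 123 in NRP-1, and its part in the reads given to ITGAE was not tested. ITGA10 had a log2 fold change of -1.44 (interval -2.54 to -0.35; adjusted p = 0.138), from under 20 reads per library.

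The other tested subunits had intervals that included 0. ITGB4 was at 62.2 ± 1.53 CPM in control and 74.7 ± 2.15 CPM in NRP-1 (SD, n = 2), a log2 fold change of 0.26 (95% interval -0.03 to 0.56; adjusted p = 0.261 by edgeR). ITGB7 was at 4.71 ± 0.128 and 2.82 ± 0.169 CPM (SD, n = 2), at -0.74 (interval -1.49 to 0.02). Among subunits of laminin and collagen receptors the intervals were -0.19 to 0.49 for ITGB1, -0.17 to 0.41 for ITGA3, -0.43 to 0.18 for ITGA6 and -0.13 to 0.97 for ITGA2. ITGAV had -0.34 to 0.53. Intervals for the scarce ITGA11, ITGB2, ITGB6 and ITGB8 were wider, the widest being -1.61 to 1.22 for ITGA11.

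The number of calls differed with the libraries used. Without NRP-1 replicate 2, edgeR called 13 members (40.6% of those tested) beside 37.8% of all genes, and without NRP-1 replicate 3 it called 13 members beside 28.9% of all genes. In these fits the spread comes from the control pair alone, and the lone NRP-1 library is assumed to vary like it. The 6 members ITGB5, TLN2, VCL, TNS1, TNS4 and LIMS1 were called with either NRP-1 library left out, as were 18.5% of all genes. Without control replicate 1 or control replicate 2, edgeR called 0 members and 0 genes at the adjusted threshold, while 2 members and 816 or 1236 genes had an unadjusted p under 0.05.

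Genes around the members were read from lists of matrix ligands, further adhesion site components, integrin regulators, hemidesmosome proteins, tetraspanins and leukocyte alpha subunits. Of 136 such genes, 109 were tested and edgeR called 3, 1 higher and 2 lower, beside 1.09% of all genes. TNC, the matrix protein tenascin C, a ligand of ITGAV integrins, had 45 and 69 reads in control and 449 and 923 in NRP-1 (log2 fold change 3.53, standard error 0.41, adjusted p = 0.043 by edgeR). LAMA3, the alpha chain of laminin-332 to which alpha-3/beta-1 and alpha-6/beta-4 bind, had 909 and 776 reads in control and 234 and 353 in NRP-1 (-1.58, standard error 0.22, adjusted p = 0.047). SLC3A2 (CD98 heavy chain), which binds integrin beta tails, had 4466 and 4540 reads in control and 1850 and 1967 in NRP-1 (-1.30, standard error 0.12, adjusted p = 0.034). No group overlapped in these 3 genes, and the study itself selected TNC for follow-up from these libraries and from quantitative PCR. By that PCR the paper reports TNC as higher in NRP-1 cells, and empty-vector cells as similar to wild-type cells. The 3 calls were lost by limma on either FPKM scale, without a filter on low counts and without either control replicate 1 or control replicate 2. Limma called only 7 and 3 of 14574 genes on its 2 scales, and edgeR without a filter called 0 of 18837.

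By list, 25 of 39 ligand genes were tested, and edgeR called TNC and LAMA3. DESeq2 also called TGFB3, a growth factor whose latent form is held by ITGAV integrins (0.75, adjusted p = 0.056 by edgeR and 0.0041 by DESeq2), and ICAM1, a ligand of ITGB2 integrins (-1.47, adjusted p = 0.082 by edgeR and 0.018 by DESeq2). LAMB3, the beta chain of laminin-332, chosen after its values were seen, had 86, 52, 57 and 91 reads and was called by neither edgeR nor DESeq2. Among 45 tested adhesion site components edgeR called 0 and DESeq2 called 3. Of all tested genes DESeq2 called 6.67%, so its count here was near that share. PEAK1, a scaffold protein, had 294 and 277 reads in control and 100 and 135 in NRP-1 (-1.34, adjusted p = 0.052 by edgeR). The kinases PAK2 (0.60, adjusted p = 0.076 by edgeR) and ROCK1 (0.64, adjusted p = 0.089 by edgeR) were higher in both NRP-1 libraries, and 11 of the 45 had an unadjusted edgeR p under 0.05, as did 22.9% of all tested genes, a share near that of the list.

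Among 18 tested regulators of integrin activity and traffic only SLC3A2 was called. At an unadjusted edgeR p under 0.05, 3 regulators were higher and 3 lower (16.7% each), beside 10.8% and 12.1% of all genes. Of 6 tested hemidesmosome genes only LAMA3 was called by edgeR. DST, a plakin of hemidesmosomes, chosen after its values were seen, had 285 and 295 reads in control and 1191 and 714 in NRP-1 (1.66, adjusted p = 0.052 by edgeR and 7.0e-07 by DESeq2). PLEC (plectin), the other plakin of the list, had 6687 and 6761 reads in control and 7591 and 5293 in NRP-1, and its groups overlapped. Of 16 tested tetraspanins edgeR called 0 and DESeq2 called TSPAN8 (-0.83, adjusted p = 0.075 by edgeR), beside 6.67% of all genes by DESeq2. TSPAN31 (-0.72, adjusted p = 0.107) and TSPAN14 (0.31, adjusted p = 0.196) came next by edgeR. Of the 16, 4 had an unadjusted edgeR p under 0.05, again near the 22.9% of all genes. The 2 tested leukocyte alpha subunits, ITGAL and ITGAX, had 51 to 59 and 22 to 33 reads per library, and their groups overlapped, with 0 called by either tool and 0 at an unadjusted p under 0.05.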

How the data were processed

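RNA from 2 control and 2 NRP-1 libraries was analysed, grouped by the labels. Per the labels, the submitters' processing notes name bcl2fastq 2.16, HISAT2 2.0.1, Bowtie2 2.2.5 and RSEM, and 2 genome builds without their role, so no coordinates of the files are given. The authors deposited an expected count per gene, not normalized (32.8% of values above 0 were not whole), and an FPKM value normalized for length and mapped reads. Only genes with reads have a row, and a gene with no row in a library was taken as 0 there. A deposited table of the authors' comparison holds group means, ratios and a score and was not used.

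After rounding, group was the only term of the quasi-likelihood test of edgeR 4.0.16 (R 4.3.3), with filterByExpr and TMM. CPM used TMM factors of 0.986 to 1.014. Alternatives were DESeq2 1.42.0, limma 3.58.1 on FPKM of genes averaging 0.5 or more (log2 after adding 1 or 0.1), no filter, no TMM, a stricter threshold (adjusted p up to 0.001, log2 fold change of 2 or more in size) and each library left out. On simulated data with 200 of 14092 genes changed by 2 on the log2 scale, edgeR recovered 97.5% with 5 false calls and DESeq2 94.0% with 5. Only genes above a read limit were changed, and both groups were given the same spread. In the data the median absolute log2 ratio between libraries was 0.14 for control and 0.29 for NRP-1. The largest change of a tested member was -1.51, for TNS4, so these percentages do not give the power for the members.

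Of 18882 gene IDs, 99.4% were matched to a RefSeq symbol. Promoters of 28 members were in the RefSeq table. Intervals of read ratios came from scipy 1.17.1 and cover counting error only.

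The members and lists were chosen with earlier results of these data known. Values in every library are given for members called by edgeR or DESeq2, for integrin subunits at 1 FPKM or more in every library of a group and for ITGB1, ITGB3, ITGB4, ITGB5, ITGA4 (no row), ITGA5, ITGAV and PTK2. From each further list the genes called by edgeR, or the 3 with the lowest p, were named. Further per-library values were chosen after they were seen. The western blots and other assays of the study were not analysed here, and some genes of the further lists are not reported here.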

Additional observations from a re-analysis of the deposited data

How the results depend on the processing

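DESeq2 called 3 members where edgeR called 0, and 10 of the companion genes where edgeR called 3. Of all genes DESeq2 called 6.67% and edgeR 1.09%. The companion count was 0 with no filter on low counts and 0 with limma on either FPKM scale. Of all genes, 0% were called with no filter, and 0.048% and 0.021% by limma. Over the fits that omit 1 library, the count of called members ran from 0 to 13 and that of companion genes from 0 to 55. With NRP-1 replicate 2 or NRP-1 replicate 3 left out the spread comes from the control pair alone. In those fits a large share of all genes was called too, as given above for each. With either control replicate left out, no gene of any kind was called. The range of these counts is thus not particular to the members or the companion genes. The stricter threshold, limma, no filter and library sizes without TMM gave 0 members each. Without TMM edgeR called 1.08% of all genes. At an unadjusted p under 0.05 limma gave 6 members on either scale (beside 21.1% and 21.0% of all genes), no filter 9 (17.5%) and no TMM 10 (23.5%).

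The median log2 fold change of the members was 0.19 without TMM and 0.19 by limma on log2(FPKM + 1), and 0.11 to 0.20 with each library left out. The median of all genes was 0.05 without TMM. Members whose groups did not overlap numbered 24 without TMM and 22 by FPKM, beside 57.1% and 56.6% of all genes. They numbered 25 to 30 with 1 library left out, beside 69.8% to 86.3% of all genes, since a group of 1 overlaps less easily by construction. An FPKM limit of 0.5 gave 11 integrin pairs in control cells.

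Of the single members, ITGB8 changed sign under limma (0.0017 and 0.0079 on the log2 scale). With each library left out, the log2 fold change ran from -0.92 to 0.27 for ITGA11, -0.16 to 0.30 for ITGAV, -0.58 to 0.62 for ITGB6, -0.22 to 0.15 for ITGB8, -0.18 to 0.69 for TNS3, -0.23 to 0.79 for PARVB, -0.75 to 0.026 for PTK2B and -0.024 to 0.12 for CD151. The cause was not tested. The other tested members kept their sign in each alternative that gave them a value. ITGA10 and ITGA11 had no limma value. No paired analysis was possible because the groups share fewer than 2 replicate numbers. At this depth a difference of ITGB3 under the limit of 3 reads was not detectable, and both groups lay at or under that limit. The counting intervals of ITGA1, ITGA7, ITGA9 and FERMT1 included a ratio of 1, and those of ITGA5 and ITGA2B did not, though neither passed the edgeR test without a filter.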
